A study of Mus musculus with 16 samples.

Results

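The genes described here encode cyclins, cyclin-dependent kinases and their inhibitors, the machinery of DNA replication, and proteins of mitosis. They were chosen by name as 47 cell cycle and proliferation genes, and a gene entered a test in a T cell subset where its mean over the 8 libraries of that subset was at least 5 normalised counts. All 47 were found among the 47643 gene identifiers of each table. Of them 29 passed in CD25- CD4 cells and 34 in regulatory T cells (Treg), 27 in both and 36 in either, out of 10426 and 11051 genes of any kind that passed. By role, 18 act in DNA replication and the entry into S phase, 21 in mitosis and 8 in the control of G1. Cdkn2c (6.49) and Ccne2 (8.91) were the members with the lowest means inside the limit in CD4, and Kif11 (4.96) and Birc5 (3.62) the nearest outside it. In Treg, Ccne2 (7.45) and Kif11 (7.77) lay just inside and Ccna2 (4.37) and Gins2 (3.98) just outside.

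A resting lymphocyte enters the cycle when D-type cyclins activate Cdk4 and Cdk6, which phosphorylate the retinoblastoma family and release E2F factors. Inhibitors of the Cip/Kip family, such as p27, and of the INK4 family hold these kinases back. E2F drives genes of the replication machinery before and during S phase, whereas most mitosis genes are transcribed later, in G2 and M. Before that, a repressor complex holds the mitosis genes off through a promoter element named the cell cycle genes homology region (CHR). Transcripts of the replication and mitosis roles therefore mark different stages of the cycle. Most CD4 T cells of the spleen are quiescent, while a part of the Treg pool divides in the unperturbed animal.

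The series compared TRaGS mice, which carry a mutation of thyroid hormone receptor alpha (gene Thra) that abolishes its DNA binding, with wild-type littermates, TRaWT. Its stated question is how signalling through this receptor affects the differentiation and function of Treg. From the spleen of each of 8 mice, 4 per genotype, CD25- CD4+ T cells (here CD4, naive by their label) and CD25+ CD4+ Treg were sorted, which gave 16 libraries in 4 groups of 4, labelled as biological replicates with a number for each animal. No treatment is labelled for any group, and the sources used here give no age or sex. Libraries were made from the 3' ends of mRNA, and the deposited values are normalised read counts, with the CD4 and the Treg table normalised apart.

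Promoters of the members are shown first, because the share with each motif is given by role. The sequences are from RefSeq (GRCm38.p6) and cover 120 bases up to the first start listed for each gene, 5' to 3' on the gene's strand. For Mcm7 this window lies inside the gene's GENCODE span (138164583 to 138172422), and the upstream end of that span was not searched. They belong to 3 mitosis genes whose values follow, the proliferation marker Mki67, topoisomerase Top2a and cyclin Ccnb2, and to the replication genes Mcm6 and Mcm7, helicase subunits, and Rrm1, the large subunit of ribonucleotide reductase. Capitals mark matches, on either strand, to the CHR word TTTGAA, the box CCAAT bound by NF-Y, and the E2F words TTCCCGC and TTGGCGC.
Mki67, chr7:135716380-135716499, minus strand: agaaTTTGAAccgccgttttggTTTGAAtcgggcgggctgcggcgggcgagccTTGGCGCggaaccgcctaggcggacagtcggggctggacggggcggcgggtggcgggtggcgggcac
Top2a, chr11:99024190-99024309, minus strand: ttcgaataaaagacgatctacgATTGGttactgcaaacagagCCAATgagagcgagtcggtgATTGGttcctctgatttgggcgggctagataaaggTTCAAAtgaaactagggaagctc
Ccnb2, chr9:70421555-70421674, minus strand: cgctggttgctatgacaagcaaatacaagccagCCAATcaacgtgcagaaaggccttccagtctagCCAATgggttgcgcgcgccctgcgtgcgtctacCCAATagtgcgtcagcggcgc
Mcm6, chr1:128359706-128359825, minus strand: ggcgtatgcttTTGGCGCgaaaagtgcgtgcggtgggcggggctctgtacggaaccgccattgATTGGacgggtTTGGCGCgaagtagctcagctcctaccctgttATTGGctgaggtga
Mcm7, chr5:138171884-138172003, minus strand: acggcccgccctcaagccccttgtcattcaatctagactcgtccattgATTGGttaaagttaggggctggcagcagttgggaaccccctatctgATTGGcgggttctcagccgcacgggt
Rrm1, chr7:102441575-102441694, plus strand: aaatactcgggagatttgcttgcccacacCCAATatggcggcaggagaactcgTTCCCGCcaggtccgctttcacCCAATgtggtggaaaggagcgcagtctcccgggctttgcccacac

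In these windows Mki67 held 2 CHR words and 1 E2F word, Top2a 1 CHR word and 3 CCAAT boxes, and Ccnb2 3 CCAAT boxes. Mcm6 held 2 E2F words and 2 CCAAT boxes, Mcm7 0 E2F words and 2 CCAAT boxes, and Rrm1 1 E2F word and 2 CCAAT boxes. Of the 47 members 39 had an entry in the promoter table, which covers 250 bases before to 50 bases after the start. For every gene only the first listed start was used. Over these bases Mki67 held 3 CCAAT boxes, Top2a 2 CHR words and 6 CCAAT boxes, and Ccnb2 2 CHR words. Mcm7 held 2 E2F words and 3 CCAAT boxes there, and the other counts given above did not change. In that wider window the CHR word occurred in 13 of 17 mitosis promoters (76.5%), 1 of 15 replication promoters (6.67%) and 0 of 7 G1 promoters, beside 18.1% of all 27025 promoters. An E2F word occurred in 3 of 17 mitosis promoters (17.6%), 8 of 15 replication promoters (53.3%) and 2 of 7 G1 promoters (28.6%), beside 6.93% of all. CCAAT occurred in 94.1%, 60.0% and 42.9% of these promoters and in 37.9% of all, and 2 matches among the members shared bases with an E2F word. A match is a description of the letters and not a measured binding site.

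**Figure D1:**
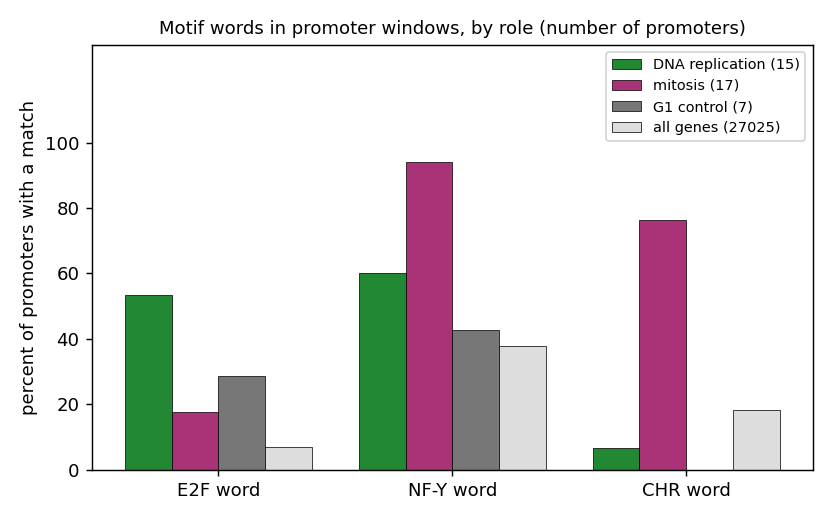
Share of promoters (percent, vertical axis) with at least 1 match on either strand to an E2F word, the NF-Y word and the CHR word, for the replication, mitosis and G1 control members and for all 27025 promoters. The CHR word was found in 76.5% of mitosis promoters and 6.67% of replication promoters, and an E2F word in 17.6% and 53.3%.

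The CD4 libraries held 2679119 to 5095278 recovered reads and the Treg libraries 2912038 to 4154027. The sorted cells carried their markers: the 6 listed Treg markers, with Foxp3 and Il2ra among them, summed to 221 to 440.1 RPM (reads scaled to 1000000 reads per library) in CD4 libraries and 2082 to 3071 in Treg libraries, and the 7 T cell markers to 2105 to 2934 in all 16. Signals of other cells were lower but present. The 9 B cell markers summed to 191 to 333 RPM in CD4, and in Treg to 283 to 437 in TRaWT and 521 to 696 in TRaGS, without overlap. Of these 9, 8 had a mean of at least 5 in Treg, Ighm took most of the signal (945 and 1510.1 normalised counts on average), and Cd79a was close to 0 (0.585 and 0.486). Erythroid markers summed to 2.99 to 19.8 RPM in 7 CD4 libraries and 141 in TRaGS replicate 2, and to 3.37 to 21.2 in 7 Treg libraries and 56.1 in TRaGS replicate 2, from the same animal, with Klf1 at 0 in all. Plasma cell markers reached 102 RPM in Treg TRaGS replicate 1 and 43.4 or less elsewhere, with Ighg1 at 0, while myeloid, dendritic, CD8 T cell and NK cell markers spanned 12.4 to 63.8, 1.62 to 28.9, 63.4 to 119 and 15.5 to 66.5.

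In Treg, Mki67 was the only one of the 34 tested members that passed the test, and 11 of the 12 tested mitosis members did not. Mki67 (chromosome 7, 135689784 to 135716361, GRCm38), which encodes the Ki-67 protein that coats mitotic chromosomes and is absent from quiescent cells, was measured at 104, 84.5, 189 and 29.3 normalised counts in TRaWT Treg and at 209, 327, 187 and 148 in TRaGS Treg. TRaWT replicate 3 lay among the TRaGS values and TRaWT replicate 4 far below them, so the groups overlapped. The means were 102 ± 66.2 and 218 ± 77.3 (SD, n = 4 each), and Mki67 rose by a log2 fold change of 1.31 ± 0.35 (SE, limma adjusted p = 0.0496). That call was lost in 11 of 17 alternatives, over which the adjusted p ran from 0.00532 to 0.359: it was 0.359 without TRaWT replicate 4 (log2 0.81), 0.264 without TRaGS replicate 2 (log2 1.09) and 0.193 with edgeR on recovered reads. It was also lost without TRaWT replicate 1 (0.0638) or 2 (0.103) and without TRaGS replicate 1 (0.132) or 3 (0.0912). The sign was positive in all 17. In bulk samples, a larger share of cells of a kind and more RNA per cell cannot be told apart. Mki67 was 1 of 34 tested members called in Treg, beside 0.959% of all genes tested (0.733% called higher).

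The remaining mitosis members in Treg did not pass. Top2a, the topoisomerase that untangles chromosomes from S phase to mitosis, stood at 143, 81.5, 190.1 and 63.4 in TRaWT and at 139.5, 141, 132 and 219.7 in TRaGS, with the TRaWT animals on both sides of the TRaGS ones (log2 0.50 ± 0.30, limma adjusted p = 0.668). Ccnb2, the B-type cyclin of mitotic entry, was measured at 8.22, 0, 0 and 2.35 in TRaWT and at 8.30, 42.7, 26.8 and 3.26 in TRaGS. TRaGS replicates 2 and 3 carried the difference, while replicates 1 and 4 lay within or next to the TRaWT range, and a library held 0 to 59 reads of the gene (log2 2.65 ± 1.11, limma adjusted p = 0.421). Cenpa, the histone variant of centromeres, stood at 35.3, 57.3, 51.3 and 47.0 in TRaWT and at 66.4, 60.7, 48.0 and 111 in TRaGS (log2 0.53 ± 0.41, limma adjusted p = 0.778).

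Of the 21 mitosis genes 12 were tested in Treg, and their log2 fold changes ran from 0.13 (Cenpe, a kinetochore motor) to 2.65 (Ccnb2), with a median of 0.96 beside 0.01 for all genes tested. All 12 were positive in the limma fit and 10 with edgeR or DESeq2 on recovered reads, where 50.5% of all genes were positive in limma. Cenpe and Tpx2 had lower arithmetic means in TRaGS than in TRaWT (40.1 against 43.5 and 8.31 against 8.78 normalised counts). Ccnb2 and Ube2c, the ubiquitin-conjugating enzyme of the anaphase-promoting complex, had TRaWT means under 5 and entered the test through their TRaGS values, so the count is not one of all mitosis genes. The 9 mitosis members under the limit (Cdk1, Ccna2, Ccnb1, Cdc20, Aurka, Aurkb, Bub1, Bub1b and Stmn1) summed to 6.28 ± 1.92 RPM in TRaWT and 10.05 ± 5.71 in TRaGS. Cdk1, the kinase of mitotic entry, was detected in TRaWT replicate 3 (16.3 normalised counts) and TRaGS replicates 1 and 3 (3.32 and 2.23) and at 0 in the other Treg libraries. Without a filter the median over all 21 was 0.56.

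**Figure D2:**
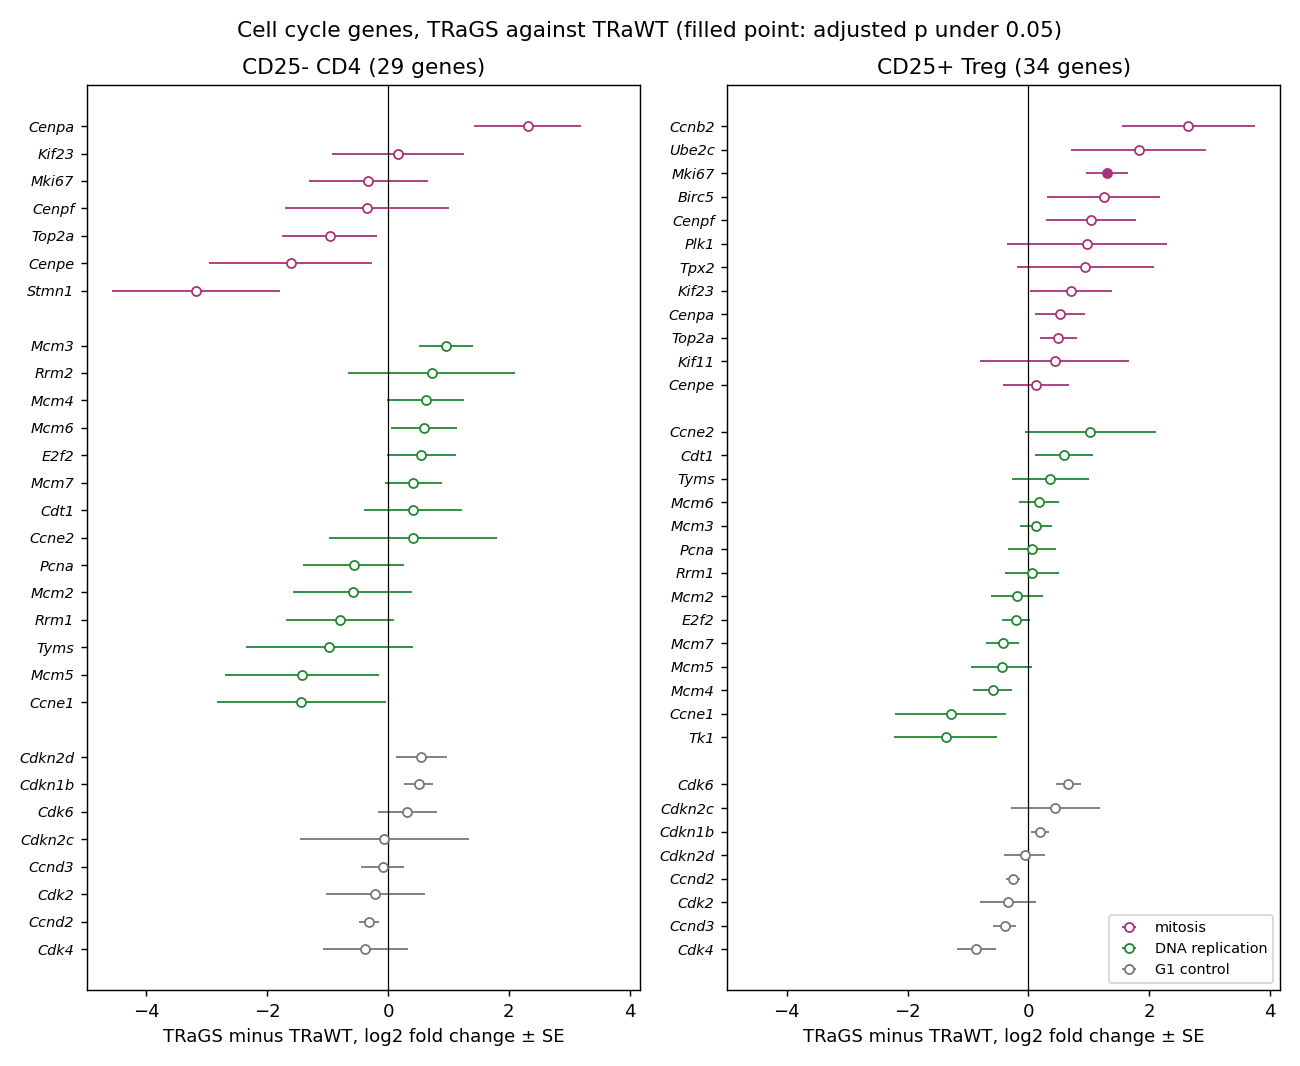
Log2 fold change of TRaGS against TRaWT (horizontal axis, bars ± SE) for the tested members in CD4 (29 genes) and Treg (34 genes), coloured by role. Mki67 in Treg (1.31 ± 0.35) is the filled point, with a limma adjusted p under 0.05, and the 12 Treg mitosis members lie between 0.13 and 2.65.

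Summed over all 21 genes, mitosis reads came to 140.0, 108, 161 and 89.9 RPM in TRaWT Treg and to 189, 290.1, 155 and 211 in TRaGS Treg. The means were 125 ± 31.9 and 211 ± 57.3 (SD, n = 4 each), and TRaGS replicate 3 lay below TRaWT replicate 3. Mki67 and Top2a together took 29.2% to 69.3% of these reads in a Treg library, so their weight in the sum was unequal between libraries. TRaGS replicate 2 held the highest value of the 8 libraries for 6 of the 12 tested mitosis genes. This is the Treg library with the highest erythroid and B cell marker sums. It also had the highest Treg marker sum (3071 RPM) and the most reads of the Treg libraries (4154027). Its B cell markers were uneven: Ighm stood at 1789 normalised counts and Pax5 at 49.9, but Cd22 at 0.723 and Cd79a at 0. The B cell and Treg marker sums were higher in every TRaGS Treg library than in any TRaWT one (Treg markers 2731 to 3071 against 2082 to 2683). Among Treg markers, the mean normalised counts of Ikzf2 (3751 in TRaWT, 5466 in TRaGS), Tnfrsf18 (518, 765) and Ctla4 (243, 266) were higher in TRaGS. Those of Il2ra (1500, 1141), Ikzf4 (716, 648) and Foxp3 (1165, 1156) were not, so the sum is not a measure of Treg content. The part of these marker signals in the mitosis values was not tested.

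Replication genes in Treg had values on both sides of 0. Mcm4, a subunit of the MCM helicase, was measured at 82.2, 133, 125 and 128 normalised counts in TRaWT and at 62.3, 78.1, 80.3 and 84.8 in TRaGS. TRaWT replicate 1 lay among the TRaGS values and the other 3 TRaWT animals above them (log2 -0.59 ± 0.32, limma adjusted p = 0.597). Mcm7, of the same helicase, stood at 159, 118, 297 and 254 in TRaWT and at 145, 109, 185 and 147 in TRaGS (log2 -0.43 ± 0.27, limma adjusted p = 0.689). Mcm3 was at 124, 161, 106 and 194 against 190.2, 148, 105 and 199, and the groups interleaved (log2 0.13 ± 0.27, limma adjusted p = 0.944). Tk1, the salvage enzyme thymidine kinase, was low and scattered, at 9.86, 26.2, 31.5 and 21.1 in TRaWT and at 13.3, 0.723, 5.58 and 28.3 in TRaGS (log2 -1.37 ± 0.86, limma adjusted p = 0.677).

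E2f2, an activator E2F, stood at 301, 199, 176 and 291 normalised counts in TRaWT Treg and at 216, 171, 268 and 176 in TRaGS Treg (log2 -0.20 ± 0.23, limma adjusted p = 0.875). The clamp of the replication fork, Pcna, was at 55.1, 65.4, 58.3 and 62.2 in TRaWT and at 39.9, 88.9, 43.5 and 101 in TRaGS, where the TRaGS animals were spread on both sides of a narrow TRaWT range. Mcm2, another helicase subunit, was at 60.0, 99.6, 47.8 and 39.9 against 59.8, 72.3, 29.0 and 53.3. Of the 18 replication genes 14 were tested: 7 had positive and 7 negative values, with a median of -0.07, and none was called by limma, edgeR or DESeq2 (0 had an unadjusted limma p under 0.05). The 4 under the limit (Cdc6, Rrm2, Gins2 and E2f1) summed to 2.26 ± 2.27 and 5.25 ± 2.98 RPM. The sum over all 18 was 344, 359.6, 352 and 377 RPM in TRaWT and 339.6, 331, 328 and 346 in TRaGS. The means were 358 ± 14.1 and 336 ± 8.59 (SD, n = 4 each).

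**Figure D3:**
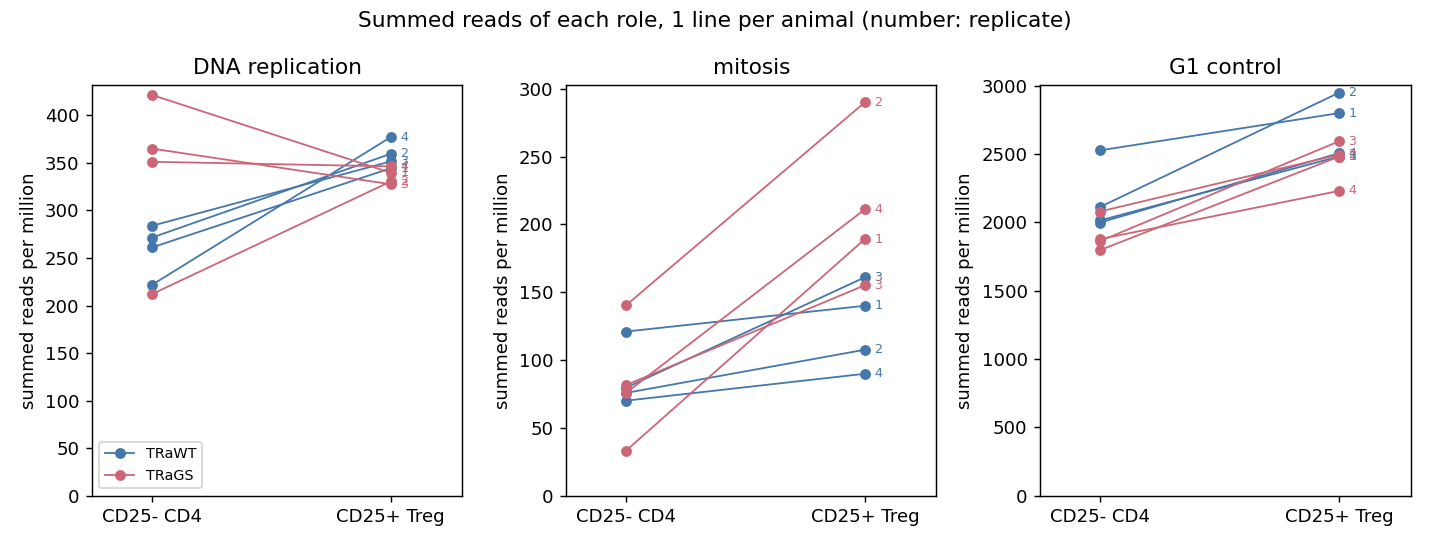
Summed RPM (vertical axis, from 0) of the 18 replication, 21 mitosis and 8 G1 control genes in the CD4 and the Treg library of each animal, with 1 line per animal and its replicate number at the Treg end. The mitosis sum was higher in Treg than in CD4 in all 8 animals, and the TRaGS Treg mitosis sums run from 155 to 290.1.

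Among the G1 control genes in Treg, the kinases and cyclins had values of either sign and none passed the test. Cdk6 (chromosome 5, 3341485 to 3531008), a D-cyclin kinase with a known role in the T cell lineage, was measured at 197, 291, 249.6 and 250.01 normalised counts in TRaWT and at 333, 540.0, 365 and 346 in TRaGS. Each TRaGS animal lay above each TRaWT animal, with TRaGS replicate 2 far above the rest (log2 0.66 ± 0.20, limma adjusted p = 0.145). The related kinase Cdk4 ran the other way, at 107, 208, 89.8 and 184 in TRaWT and 57.3, 105, 70.3 and 78.3 in TRaGS, with TRaGS replicate 2 above TRaWT replicate 3 (log2 -0.86 ± 0.32, limma adjusted p = 0.326). Ccnd3, a D-type cyclin (chromosome 17, 47505051 to 47599691), stood at 307, 369, 507 and 372 in TRaWT and at 299.8, 275, 291 and 300.1 in TRaGS. The TRaGS values lay in a narrow band just below the lowest TRaWT value (log2 -0.39 ± 0.19, limma adjusted p = 0.543). Cdk6 and Ccnd3 were the 2 of 34 tested members whose groups did not overlap in Treg, beside 5.07% of all genes (2.84% higher and 2.23% lower in TRaGS).

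Ccnd2, a D-type cyclin induced by growth signals in lymphocytes (chromosome 6, 127125162 to 127152193), was measured at 7234, 7188, 6705 and 7068 normalised counts in TRaWT Treg and at 5993, 5535, 6724 and 5428 in TRaGS Treg. TRaGS replicate 3 matched the lowest TRaWT animal and the other 3 lay below all of them (log2 -0.26 ± 0.12, limma adjusted p = 0.481). Cdkn1b, encoding p27, stood at 938, 739, 739 and 792 in TRaWT and at 789, 823, 1035 and 1044 in TRaGS (log2 0.20 ± 0.15, limma adjusted p = 0.777). The other 3 G1 members, Cdk2 and the INK4 inhibitors Cdkn2c and Cdkn2d, had values of -0.34, 0.45 and -0.06. The group's median was -0.16, with 3 of 8 positive. Over the 34 tested members of Treg, 6 had an unadjusted limma p under 0.05, 3 in each direction, beside 9.12% of all genes.

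**Figure D4:**
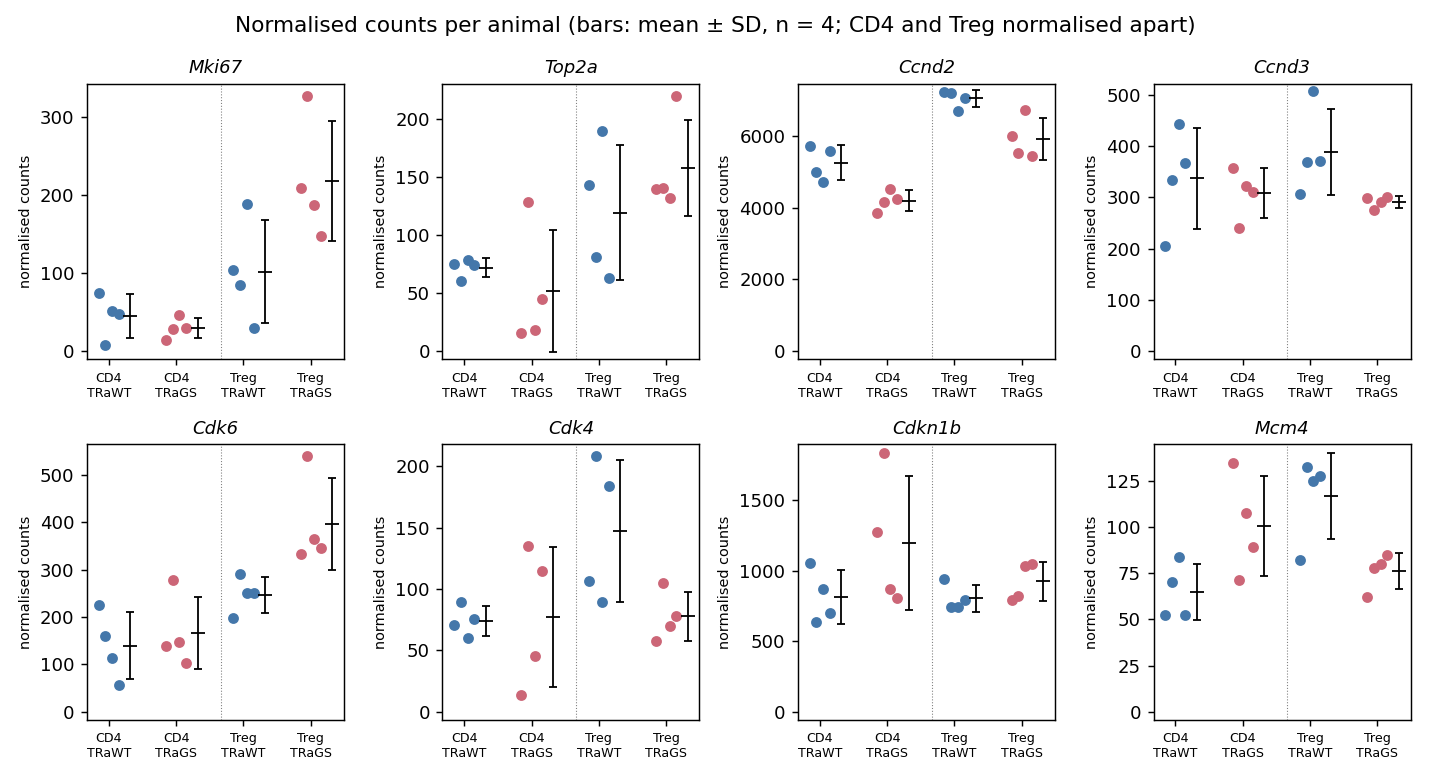
Normalised counts (vertical axes) of 8 members in each library, with the mean ± SD of the 4 animals of a group beside the points; the dotted line parts the CD4 from the Treg table, which were normalised apart. In Treg, Mki67 runs from 29.3 to 189 in TRaWT and from 148 to 327 in TRaGS, and Cdk6 and Ccnd3 show no overlap between genotypes.

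In CD4 cells no member passed the test, beside 0.0575% of all genes (6 genes, all higher). The limma adjusted p of the 29 tested members ran from 0.907 to 0.998, and edgeR and DESeq2 called 0 of them. An unadjusted limma p under 0.05 was found for 4 members, 3 higher and 1 lower, beside 5.17% of all genes. Levels scattered more between animals here than in Treg: among genes with 20 to 100 normalised counts the median coefficient of variation within a genotype was 0.734 over all CD4 genes and 0.428 in Treg, where counting alone gives 0.140 and 0.142. The members had 0.737 and 0.417.

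Among replication genes in CD4, Mcm3 was measured at 133, 67.7, 149 and 156 normalised counts in TRaWT and at 375, 148, 191 and 289 in TRaGS, where TRaGS replicate 2 lay among the TRaWT animals and the other 3 above them (log2 0.96 ± 0.45, limma adjusted p = 0.947). Mcm6 stood at 84.0, 141, 78.4 and 62.2 against 147, 158, 94.3 and 141, and Mcm7 at 78.3, 123, 192 and 154 against 146, 243, 218 and 117. Mcm5 was at 31.5, 5.85, 14.2 and 78.1 in TRaWT and at 4.89, 4.24, 28.7 and 4.58 in TRaGS, with 1 TRaGS animal apart from the others. Subunits of the same helicase thus had values on both sides of 0, with 0.60 ± 0.55 for Mcm6, 0.42 ± 0.47 for Mcm7, -1.43 ± 1.27 for Mcm5 and -0.59 ± 0.99 for Mcm2. The Mcm2 values were 107, 9.19, 39.2 and 48.8 against 16.6, 5.66, 72.8 and 49.3. Pcna was at 67.8, 26.7, 54.4 and 85.4 against 3.91, 16.3, 172 and 127 and had a limma value of -0.57 ± 0.84, which was positive on recovered reads (0.45 with edgeR). The median of the 14 tested was 0.41, with 8 positive, where 49.3% of all genes were positive and their median was -0.01, and it turned negative without TRaGS replicate 3 (-0.086). The 4 replication members under the limit (Cdc6, Tk1, Gins2 and E2f1) had means of 0.202 to 0.860 normalised counts.

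Mitosis genes in CD4 were mostly near the detection limit, and 14 of the 21 did not pass the filter. Those 14 summed to 12.4 ± 4.55 RPM in TRaWT and 6.78 ± 4.38 in TRaGS, and Cdk1 was detected in TRaWT replicate 3 only, at 2.18 normalised counts. Mki67 stood at 75.1, 7.52, 51.2 and 47.6 in TRaWT CD4 cells and at 14.7, 28.3, 46.1 and 29.8 in TRaGS CD4 cells, with the TRaGS values inside the TRaWT range (log2 -0.33 ± 0.98, limma adjusted p = 0.987). Top2a was at 75.1, 60.1, 78.4 and 74.4 in TRaWT and at 15.6, 129, 18.5 and 44.7 in TRaGS, where TRaGS replicate 2 lay above and the other 3 below the TRaWT animals (log2 -0.97 ± 0.79, limma adjusted p = 0.947).

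Cenpa had the smallest unadjusted p of the members in CD4, at 54.1, 3.34, 14.2 and 28.0 in TRaWT and 58.7, 298, 39.0 and 88.2 in TRaGS (log2 2.31 ± 0.89, limma adjusted p = 0.907). Its highest value came from TRaGS replicate 2, the CD4 library with 141 RPM of erythroid markers, and where the B cell marker Cd79a also stood out (49.5 normalised counts, 2.93 or less in the other CD4 libraries); their part was not tested. Without that library the log2 fold change was 1.73, and it was lowest without TRaWT replicate 2 (1.62). Stmn1, encoding the microtubule destabiliser stathmin, was at 37.9, 75.2, 7.62 and 4.88 in TRaWT and at 21.5 in TRaGS replicate 3 and 0 in the other 3 TRaGS animals (log2 -3.18 ± 1.39, limma adjusted p = 0.947). The median of the 7 tested mitosis members was -0.34 with 2 positive, and without 1 library it ran from -1.02 to 0.037.

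Ccnd2 was the 1 of 29 tested members whose groups did not overlap in CD4, beside 3.16% of all genes (1.43% higher and 1.73% lower in TRaGS). It was measured at 5733, 5006, 4709.6 and 5576 normalised counts in TRaWT CD4 cells and at 3846, 4162, 4534 and 4252 in TRaGS CD4 cells. All TRaGS animals lay below all TRaWT animals, with means of 4199 ± 283 and 5256 ± 479.7 (SD, n = 4 each) and a log2 fold change of -0.32 ± 0.17 (SE, limma adjusted p = 0.947). Its Treg values, given above, had the same sign without passing either. Cdkn1b was at 1054, 633, 866 and 696 in TRaWT and at 1271, 1833, 869 and 808 in TRaGS, and Cdkn2d, encoding the INK4 inhibitor p19, at 163, 209, 158 and 128 against 211, 667, 139 and 162. In both genes the highest value was that of TRaGS replicate 2, which also held the highest value in 5 of the 8 G1 genes. Ccnd3 stood at 205, 334, 443 and 367 against 357, 240.4, 323 and 312 (log2 -0.09 ± 0.35).

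The balance of the mitosis and replication roles was read as the ratio of their summed reads in each library, which does not depend on the scaling of a table. In Treg it was 0.407, 0.299, 0.458 and 0.238 in TRaWT and 0.557, 0.878, 0.474 and 0.610 in TRaGS, so that each TRaGS library lay above each TRaWT library, although TRaGS replicate 3 and TRaWT replicate 3 were close. The means were 0.351 ± 0.0998 and 0.630 ± 0.175 (SD, n = 4 each), a ratio of 1.80, and leaving out 1 library gave 1.56 (without TRaGS replicate 2) to 2.00 (without TRaWT replicate 3). The roles and the measure were chosen with earlier results of these data known, so the separation is a description and carries no test. Without Mki67 the ratio of means was 1.60 and without Mki67 and Top2a 1.71, and in both cases TRaGS replicate 3 lay below the highest TRaWT library. In CD4 the ratio was 0.464, 0.279, 0.281 and 0.316 in TRaWT and 0.0784, 0.662, 0.223 and 0.216 in TRaGS. There the TRaGS animals lay on both sides of the TRaWT ones, and the ratio of means was 0.881 with all libraries and ran from 0.515 without TRaGS replicate 2 to 1.10 without TRaGS replicate 1, so its direction turned (also without TRaWT replicate 1).

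**Figure D5:**
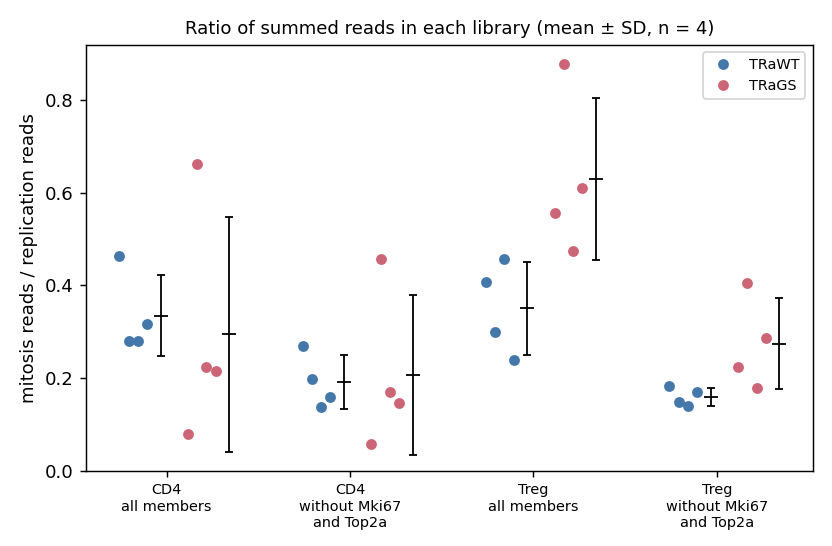
Ratio of summed mitosis reads to summed replication reads in each library (vertical axis, from 0), with the mean ± SD of 4 animals per group, for all members and without Mki67 and Top2a. In Treg the TRaGS libraries run from 0.474 to 0.878 and the TRaWT libraries from 0.238 to 0.458, and without Mki67 and Top2a the groups overlap.

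A test over animals, on the log2 value in Treg less that in CD4, asked whether the genotype effect was unequal in the subsets. No member was called, nor was any of the 9914 genes tested (0.0% called; 591 genes, 5.96%, had an unadjusted limma p under 0.05, among them 1 member). That member was Mcm4, with a log2 fold change of 0.62 in CD4 cells but -0.59 in Treg, which differ by -1.21 ± 0.42 (SE, limma adjusted p = 0.777). Next by p were Mcm7, with 0.42 and -0.43 (difference -0.84 ± 0.45), and Top2a, with -0.97 and 0.50 (difference 1.46 ± 0.80), each with a limma adjusted p of 0.843. For Mki67 the values were -0.33 and 1.31, a difference of 1.63 ± 0.98 (limma adjusted p = 0.859). A genotype difference in Mki67 that was unequal in Treg and CD4 cells is therefore not shown. With a variance trend on mean expression 17 genes of all kinds were called, and none was a member. Under that trend the unadjusted limma p was 0.0854 for Mcm4, 0.0488 for Top2a and 0.0538 for Mki67, so the order of the members depends on the trend.

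Across subsets, levels are set side by side as RPM of recovered reads, with no test because the tables were normalised apart. A single gene, Gm42418, held 21.1% to 41.1% of a CD4 library and 20.8% to 33.0% of a Treg library, with the larger share in the CD4 library of all 8 animals, which raises RPM of other genes in Treg over CD4. Mki67 averaged 11.7 ± 7.27 RPM in CD4 and 50.3 ± 30.4 in Treg (SD over 8 animals) and was higher in the Treg library of 7 of 8 animals. Top2a averaged 18.9 and 43.0 and was higher in 7 of 8. E2f2, with 32.7 and 69.4, and Ccnd2, with 1466 and 2009, were higher in Treg in 8 of 8 animals, 2 of the 27 members measured in both, beside 6.34% of all genes measured in both. Cdkn2d, with 69.2 and 27.1, was lower in Treg in 8 of 8, 1 of 27 beside 2.33% of all genes. With RPM computed without Gm42418, E2f2 was higher in Treg in 7 of 8 animals, while Ccnd2 was still higher and Cdkn2d lower in all 8 (1 of 27 members each, beside 4.71% and 3.41% of all genes). Cdk6 averaged 47.2 and 101, and its relative Cdk4 23.3 and 34.9, higher in Treg in 7 and 6 of 8 animals.

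Members with similar averages in both subsets included Pcna, at 21.6 and 19.995 RPM and higher in Treg in 4 of 8 animals, Cdkn1b, at 307 and 267 (4 of 8), and Mcm6, at 35.0 and 36.9 (5 of 8); without Gm42418 each of the 3 was higher in Treg in 3 of 8. Tk1, under the limit in CD4, had 0.269 RPM there and 5.22 in Treg, higher in 7 of 8. By role, the mitosis sum was higher in Treg in all 8 animals, by 1.16 to 5.72 times, the G1 sum in all 8 by 1.11 to 1.40 times, and the replication sum in 5 of 8, with ratios of 0.806 to 1.70. Without Gm42418 the same numbers of animals were higher, by 1.11 to 5.30 times (mitosis) and 1.07 to 1.31 times (G1), with replication ratios of 0.745 to 1.55. Ccnd2 took 55.6% to 79.7% of the G1 reads in CD4 and 73.8% to 80.9% in Treg, so that sum largely repeats Ccnd2.

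Other genes of the same roles were taken from lists of 51 replication, 63 mitosis and 30 G1 control genes. In Treg 2 of them were called, both higher in TRaGS and without overlap, where 0.959% of all genes were called and 5.07% did not overlap. Cdc25b (chromosome 2, 131186949 to 131198497), a phosphatase that activates cyclin-dependent kinases at the entry into mitosis, was measured at 182, 157, 182 and 203 normalised counts in TRaWT and at 364, 459.8, 317 and 252 in TRaGS. It rose from 181 ± 18.9 to 348 ± 87.3 (log2 0.91 ± 0.22, limma adjusted p = 0.0213). Rbl2, encoding p130, a retinoblastoma family repressor of cell cycle genes in quiescent cells (chromosome 8, 91070057 to 91123844), stood at 341, 426, 419 and 378 in TRaWT and at 547, 735, 612 and 705 in TRaGS. It rose from 391 ± 39.3 to 649.7 ± 85.8 (log2 0.73 ± 0.17, limma adjusted p = 0.0175).

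By list in Treg, 29 of 39 other mitosis genes were positive, with a median of 0.45 and 1 called (Cdc25b), 26 of 45 other replication genes, with a median of 0.05 and 0 called, and 12 of 23 other G1 genes, with a median of 0.07 and 1 called (Rbl2). Of all Treg genes 50.5% were positive and 0.959% called. DESeq2 called 2 other mitosis genes, Cdc25b and Lmnb1, a lamin of the nuclear envelope that was named after its values were seen. The replication genes with the smallest p were Nasp, a histone chaperone (310.3 ± 62.2 and 213 ± 48.3, log2 -0.54, limma adjusted p = 0.403), and Ung, the uracil glycosylase (6.30 ± 4.72 and 22.7 ± 8.11, log2 1.84, limma adjusted p = 0.477). In CD4 none of the other genes was called. Rbl2 had 0.91 ± 0.33 there (limma adjusted p = 0.828) and Cdc25b 0.58 ± 0.37 (limma adjusted p = 0.947). Prim1, the DNA primase subunit, had 2.88 ± 1.26, Dut, which removes dUTP, 1.48 ± 0.68, Ckap5, a microtubule polymerase, -0.98 ± 0.48, and Mnat1, of the Cdk-activating kinase, -1.47 ± 0.68, each with a limma adjusted p of 0.947. The medians in CD4 were -0.17 for replication (18 of 42 positive), -0.11 for mitosis (13 of 29) and 0.19 for G1 control (17 of 26).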

How the data were processed

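CD25- CD4+ T cells and CD25+ CD4+ Treg of 8 mice, 4 per genotype, were measured with 3' tag RNA-seq (QuantSeq FWD, per the labels' protocols). The submitters' processing notes name the build GRCm38; aligner and counter: not given in the sources used here. Per subset, the authors deposited their values as 1 table of normalised counts, which is a signal made by dividing each library's counts by its own factor. All values were whole multiples of 1 step per library (100%, tolerance 0.001), which gave the reads back, 2679119 to 5095278 per library. With them as input, edgeR found 3 CD4 genes and 90 Treg genes past the threshold. Symbols came from the reference gene table (47224 of 47643 identifiers) and coordinates from GENCODE mouse release M21. No molecular identifiers are named for the kit, so reads may be copies and precision stated from them covers counting error only.

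Genes with a mean of at least 5 in a table entered limma 3.58.1 (R 4.3.3) as log2(value + 1); the variance followed a trend, and calls needed a Benjamini-Hochberg adjusted p under 0.05 over all genes tested. A fold change is the TRaGS less the TRaWT mean of these logs, so low genes show less than their change. In CD4 the prior degrees of freedom were infinite, so SEs and p-values there take a gene's variance from the trend and not from its own animals; they were 36.8 in Treg and 2.64 for the difference between subsets. That difference was tested over animals, matched by the animal number in the titles. Its variance trend ran on the mean difference of a gene and not on its mean expression. The members, roles, marker lists and other gene lists were chosen with earlier results of these data known. Values are given for called members, the 3 with the highest mean and the 3 with the smallest p per role, and Mki67, Top2a, Cdk1, Pcna, Mcm2 and Cdkn1b; of other genes, the called ones or the 2 with the smallest p per list. No pair of replicates agreed within sampling noise.

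Alternatives were pseudocounts of 0.5 and 5, a filter at 20 or none, and scaling by the upper quartile. Others were recovered reads in edgeR 4.0.16 or DESeq2 1.42.0, blocking on replicate number, and dropping each library in turn. The last took TRaGS replicates 1 and 2 alone, since the animal numbers of replicates 3 and 4 lie apart (534845 and 535574). TRaGS replicate 2 (530201) also lies outside the TRaWT numbers (529490 to 529518). Genotype and animal number therefore remain partly confounded in that setting. A variance trend on mean expression and other sums for the read ratio, and RPM without the most abundant gene, were added after seeing the data. The fits were tested on simulated data. Promoter words were searched by Python 3.11.15, and figures drawn with matplotlib 3.10.9.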

Additional observations from a re-analysis of the deposited data

Results flagged for a closer look

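In 8 of 75 groups of 4 libraries that were looked at, 1 library lay far from the other 3 (by Dixon's 95% critical value for the gap); chance alone gives about 1 in 20 groups, a rate that does not hold where the other 3 libraries are at 0 (Stmn1 and Cdk1 below), since a gene seen in 1 library always meets it. In CD4, Mcm5 was at 28.7 normalised counts in TRaGS replicate 3 and 4.24 to 4.89 in the others, and Stmn1 at 21.5 (21 reads) in the same library and 0 in the others. Cdkn2d was at 667 in CD4 TRaGS replicate 2 and 139 to 211 in the others, and Cdk1 at 2.18 (2 reads) in CD4 TRaWT replicate 3 and 0 in the others.

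In Treg, Cdk1 was at 16.3 (14 reads) in TRaWT replicate 3, the Treg library of the same animal, and 0 in the others. Mcm4 was at 82.2 in TRaWT replicate 1 and 125 to 133 in the others, so its TRaGS values (62.3 to 84.8) overlap TRaWT through that library. Top2a was at 219.7 in TRaGS replicate 4 and 132 to 141 in the others, and Cdk6 at 540.0 in TRaGS replicate 2 and 333 to 365 in the others.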

How the results depend on the processing

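Over all settings, 684 values kept their direction and side of the threshold, or moved by less than the spread. Members called in Treg numbered 1 with limma and 0 with a pseudocount of 0.5, no filter, a mean of at least 20, edgeR or DESeq2, and 0 to 1 without 1 library (0 without TRaWT replicate 1, 2 or 4 or TRaGS replicate 1, 2 or 3). In CD4 and for the difference between subsets the count was 0 in all settings run. Over all genes the Treg count of 106 became 62 without a filter, 54 and 56 without TRaGS replicate 3 or 4, and 34 with TRaGS replicates 1 and 2 alone. The CD4 count of 6 became 1 without a filter, 2 with upper-quartile scaling, 3 with edgeR, 10 with DESeq2 and 1 to 7 without 1 library (1 without TRaWT replicate 3 or TRaGS replicate 1, 3 without TRaWT replicate 1, 2 or 4). Upper-quartile scaling moved the median of all CD4 genes to -0.13 and that of the difference to 0.17.

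Deviations of same-numbered animals had correlations over genes of 0.0090 to 0.046 in CD4 and -0.021 to 0.026 in Treg. Over all pairs of numbers in the 2 tables they ran from -0.061 to 0.056. No pairing by number was thus seen, but with 4 animals per genotype these values cannot exclude one. With the replicate block the members called were 0 in CD4, 1 in Treg (Mki67, adjusted p = 0.0223) and 0 for the difference, and 4 and 112 genes were called in CD4 and Treg.

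Medians by role moved beyond their spread in these cases. With TRaGS replicates 1 and 2 alone the CD4 replication median was -0.22, the CD4 G1 median 0.51 and the Treg G1 median 0.055. The Treg replication median was 0.10 without a filter, and the Treg mitosis median 0.53 with a pseudocount of 5, 0.56 without a filter and 0.59 with DESeq2. Without 1 library, medians ran from -0.086 to 0.38 (CD4 replication), -1.02 to 0.037 (CD4 mitosis), -0.18 to 0.21 (CD4 G1), -0.14 to 0.05 (Treg replication), 0.66 to 1.17 (Treg mitosis) and -0.22 to 0.043 (Treg G1). The ratio of mitosis to replication reads, TRaGS over TRaWT, ran from 1.56 to 2.00 in Treg and from 0.515 to 1.10 in CD4. The cause was not tested. Without Gm42418 in the library totals, members higher in Treg than in CD4 in all 8 animals went from 2 to 1, since that gene took a larger share of the CD4 reads.

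Signs turned for CD4 Pcna with edgeR (0.45) and DESeq2 (0.45), and with TRaGS replicates 1 and 2 alone for Treg Pcna (-0.012) and Treg Mcm2 (0.17). Without 1 library they also turned: in CD4 Mki67 ran from -1.02 to 0.037, Ccnd3 from -0.31 to 0.057, Pcna from -1.31 to 0.40 and Mcm2 from -1.23 to 0.063, and in Treg Mcm3 from -0.011 to 0.32, Pcna from -0.16 to 0.28 and Mcm2 from -0.37 to 0.075. Depth limits low genes: those with a mean of 5 to 20 normalised counts had a median coefficient of variation of 1.36 in CD4 and 0.883 in Treg (members 1.29 and 0.981), where counting alone gives 0.300 and 0.302.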
